A study of Mus musculus with 6 samples.

Results

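The HSF1 sites of STHdhQ7/Q7 cells, called Q7 cells here, were compared without treatment and after heat shock. The comparison takes in every peak of the 2 deposited lists of this line, 260 peaks at 33 °C and 6173 peaks at 42 °C, or 6433 of the 8886 HSF1 peaks of the series. A site was counted as kept when a peak at 33 °C and a peak at 42 °C shared at least 1 base. Q7 cells are a striatal line derived from embryonic mice with the wild type genotype HdhQ7/Q7, grown at 33 °C in medium with G418. The untreated library comes from cells at that temperature and the other from the same line after 6 hours at 42 °C. The series also holds STHdhQ111/Q111 cells, called Q111 cells, derived from knock-in HdhQ111/Q111 mice and sampled in the same 2 ways. These are used below only for values set beside those of Q7 cells. Each genotype is represented by 1 cell line and each condition by 1 library, so no value has a replicate error and no difference was tested. Peak lists give no means of checking the striatal identity of the cells.

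HSF1 is the main transcription factor of the heat shock response in vertebrates. In unstressed cells most of it is held inactive as a monomer, in part by chaperones. Unfolded proteins draw these chaperones away, and HSF1 then forms trimers, enters or stays in the nucleus and binds heat shock elements, which are repeats of a short motif in alternating orientation. Genes for chaperones of the HSP70, HSP90 and HSP40 families are its best known targets. In chromatin immunoprecipitation followed by sequencing (ChIP-seq), DNA fragments bound by a protein are enriched with an antibody, and a peak is a stretch of genome where such fragments pile up.

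Each peak carries a score given by the authors' peak caller. It was used only to order the peaks of 1 list, with rank 1 for the highest score and tied peaks sharing their mean rank. At 42 °C, 73 peaks were tied at a score of 3100 and share rank 49, and 12 peaks scored above them. The top score of the Q111 list at 42 °C is also exactly 3100. The tie may be a cap of the score, in which case the order of these 85 peaks among themselves carries no information. The read depth behind the lists is unknown, and the number of peaks, their scores and their widths all depend on it. Whether depth or enrichment differed between the libraries was not tested. Positions are given on mouse build mm9, counted from 1. No genome or annotation of that build was used here, so peaks are identified by position and carry neither gene names nor sequence. Intervals are 95% Wilson intervals for shares and 95% order-statistic intervals for medians. They cover counting error over peaks only, and neighbouring peaks are not independent.

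Nearly all sites bound at 33 °C were found again after heat shock. Of the 260 peaks at 33 °C, 245 overlapped a peak at 42 °C, and 238 of the 6173 peaks at 42 °C overlapped one at 33 °C. All 65 peaks in the best quartile of the 33 °C list were kept, as were all 65 in the second quartile. In the lower quartiles 62 of 65 and 53 of 65 peaks were kept. Losses thus lay in the lower part of the list.

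The kept sites stood high in the 42 °C list. Given as rank in percent of the list's length, their median position was 13.95% (95% interval 11.2 to 16.2, n = 238). Peaks found only at 42 °C had a median position of 51.7% (50.4 to 53.0, n = 5935). In the best decile of the 42 °C list, 97 of 617 peaks, or 15.7% (13.1 to 18.8), overlapped a 33 °C peak. The share was 9.09% in the second decile and 7.28% in the next. In the 5 lowest deciles together it was 0.486% (0.295 to 0.800), or 15 of 3087 peaks. Over the whole list the share was 3.86%. The other 520 peaks of the best decile had no 33 °C counterpart.

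**Figure D1:**
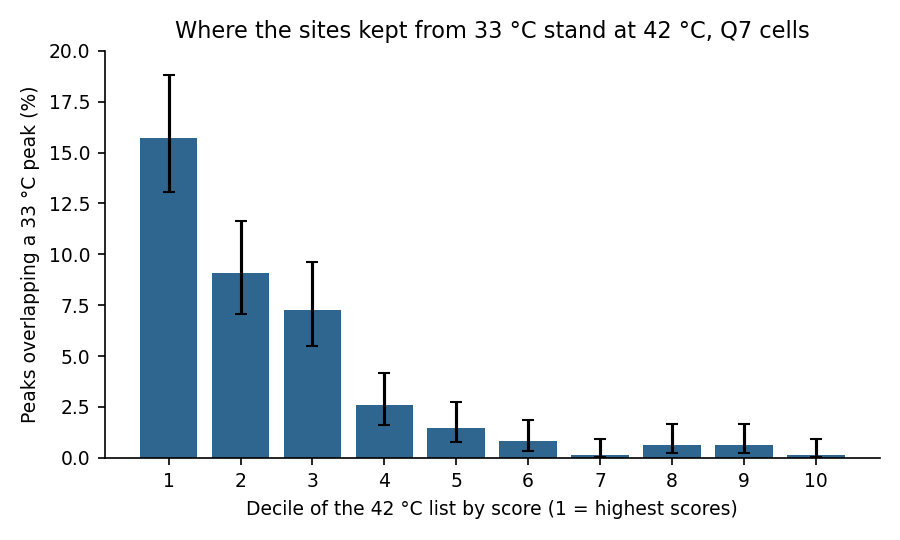
Bars show the percentage of Q7 peaks at 42 °C that overlapped a Q7 peak at 33 °C, for each decile of the 42 °C list ordered by score, and error bars are 95% Wilson intervals over peaks. The share is 15.7% in the best decile and 0.162% in the lowest.

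At the very top of the 42 °C list, kept and heat-only sites were mixed. Of the 85 peaks at or above the tied score, 40 overlapped a 33 °C peak, 37 of the 73 tied peaks and 3 of the 12 above them. The 5 best heat-only peaks below the tie held ranks 86 to 90. They lay at chr3:85843933-85844769, chr5:139486424-139487103, chr19:5810099-5811075, chr2:156557473-156558333 and chr1:153275263-153275852, with widths from 590 to 977 bases. None of these 5 lay near a site bound at 33 °C, the closest distance being 473197 bases for the peak on chromosome 5. The same held for most heat-only peaks, of which 5627 of 5935, or 94.8%, lay over 100 kb from any 33 °C peak.

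The order of the kept sites among themselves differed widely between the temperatures. For this comparison 213 pairs were used in which 1 peak at 33 °C matched 1 peak at 42 °C and neither matched another, and each pair was ranked from 1 to 213 at both temperatures. Of the 53 pairs in the best quartile at 33 °C, 12 were in the best quartile at 42 °C, or 22.6% (13.5 to 35.5). Another 20 were in the second quartile, 16 in the next and 5 in the lowest. The best quartile at 42 °C in turn drew 12, 13, 15 and 13 pairs from the 4 quartiles at 33 °C, in order, and so came about equally from all of them. The median pair moved by 64.5 places (53 to 74), and 47 of 213 pairs moved by over 50% of the order. Spearman's rho over the 213 pairs was 0.129, and 0.124 over the 174 pairs below the tied score. Over the 58 pairs with another 33 °C peak within 20 kb it was 0.37, and over the 155 pairs without one 0.065. These are descriptions over sites of the same 2 libraries.

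**Figure D2:**
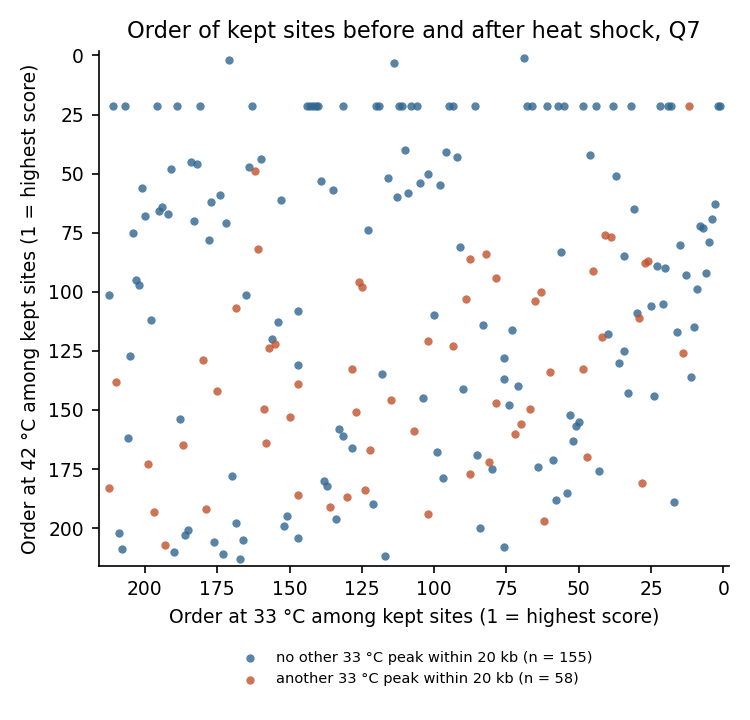
Each point is 1 of 213 Q7 sites with a single peak at both temperatures, placed by its order among these sites at 33 °C (horizontal) and 42 °C (vertical), with 1 as the highest score on both axes and red for sites with another 33 °C peak within 20 kb. Points fill the plot with little trend, and 36 sites tied at 42 °C form the row at 21.5.

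The 39 pairs at or above the tied score at 42 °C had come from all over the 33 °C list, from rank 1 to rank 258 of 260. The 5 largest rises in order all ended among them. The peak at chr1:184450408-184450780 held rank 258 at 33 °C and was tied at rank 49 at 42 °C, with its width rising from 373 to 847 bases. That at chr8:86131982-86132302 held rank 252 and was also tied at rank 49. The same tie was reached by chr10:121341048-121341599 from rank 236 and by chr4:154975626-154976025 from rank 228. The remaining one, at chr16:43574164-43574498, went from rank 201 to rank 9, above the tie. Its place among the 5 rests on the order above the tie, which may carry no information. All 5 had been in the lower part of the 33 °C list, since so large a rise can start only there. None had another 33 °C peak within 20 kb, as was the case for 155 of the 213 pairs. In Q111 cells, all 5 sites held a peak at 42 °C and 1 of them, that on chromosome 10, held one at 33 °C. Over all 245 kept 33 °C peaks, the shares with a Q111 peak were 93.1% at 42 °C and 74.3% at 33 °C.

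The largest falls in order concerned sites well placed at 33 °C, since a large fall can start only from such a place. The peak at chr10:30530758-30531127 held rank 20 of 260 at 33 °C and rank 2439 of 6173 at 42 °C, with almost the same width of 370 and 375 bases. The peak at chr13:21802745-21803073 went from rank 34 to rank 2207.5, and that at chr11:68938055-68938272 from rank 77 to rank 3023.5. The other two were chr6:38483815-38484182, from rank 54 to 1927, and chr8:20020097-20020610, from rank 95 to 4906.5. These ranks come from lists of different lengths and are set side by side only. Of the 5, those on chromosomes 13 and 11 had a close neighbour at 33 °C, at 96 and 90 bases. Over all 213 pairs, 58 had another 33 °C peak within 20 kb. A Q111 peak was present at both temperatures at 4 of the 5 sites, the exception being the site on chromosome 8, which had none. The shares over all kept 33 °C peaks were 74.3% at 33 °C and 93.1% at 42 °C.

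The best sites at 33 °C mostly stayed in the upper part of the kept sites without leading it. Among the 10 best pairs at 33 °C, 2 were tied at rank 49 at 42 °C, at chr15:81229928-81230706 and chr1:55144548-55145236. The other 8 held places 63 to 115 of 213 at 42 °C. Because the tied pairs share place 21.5, none of the 10 was counted among the 10 best at 42 °C. All 10 sites overlapped Q111 peaks at both temperatures, where the shares over all kept 33 °C peaks were 74.3% at 33 °C and 93.1% at 42 °C.

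The order of sites was also compared across cell lines, at the 138 sites with a single peak in each of the 4 HSF1 lists. Between Q7 and Q111 cells, Spearman's rho was 0.68 at 42 °C and 0.50 at 33 °C. Between temperatures it was 0.23 within Q7 cells and 0.36 within Q111 cells. Of the 34 best sites of Q7 cells at 42 °C, 27 were also among the 34 best of Q111 cells at 42 °C, or 79.4% (63.2 to 89.7). Of the 34 best sites of Q7 cells at 33 °C, 17 were among the best of Q111 cells at 33 °C and 10 among the best of Q7 cells at 42 °C. Of the 34 best sites of Q111 cells at 33 °C, 16 were among the best of Q111 cells at 42 °C, about as many as the 17 shared by the lines at 33 °C. The rho values were thus higher between the lines at either temperature than between temperatures in either line, whereas the counts of shared best sites did not separate the 2 in every case. The points share libraries and were kept in all 4 lists, and these differences were not tested.

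Kept sites were wider after heat shock. Counting every overlapping pair, 252 in all, the 42 °C peak was the wider in 209 pairs, or 82.9% (77.8 to 87.1). The median ratio of the width at 42 °C to that at 33 °C was 1.47 (1.36 to 1.53), and 58 pairs reached a ratio of at least 2. The median gain was 199.5 bases (161 to 233). Among all 6173 peaks at 42 °C, peaks without a 33 °C counterpart had a median width of 492 bases (487 to 497) and kept ones 614 bases (586 to 666). Kept peaks at 33 °C had a median width of 431 bases (405 to 455), and the lost ones 370 bases (335 to 409, n = 15). The widest peak at 42 °C measured 2633 bases and the widest at 33 °C 1467 bases.

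**Figure D3:**
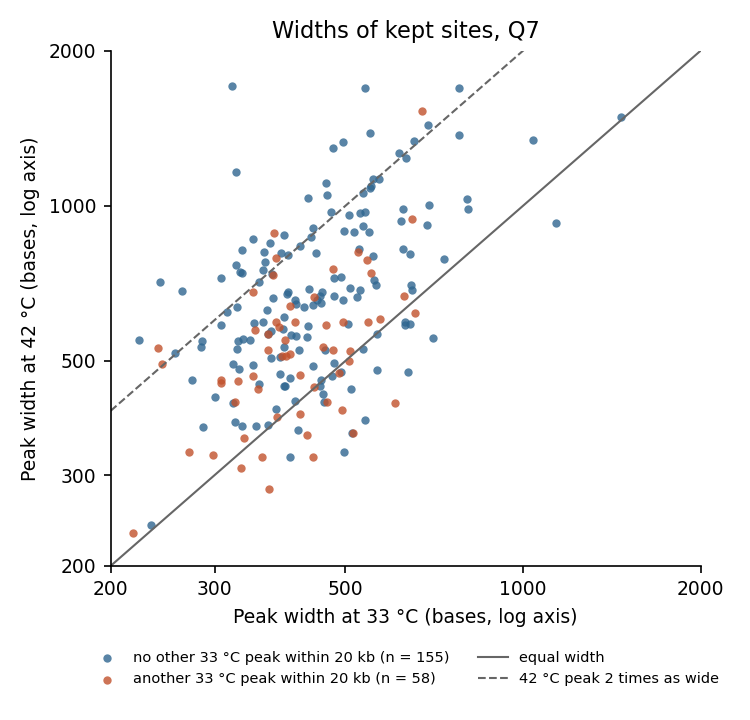
Each point is 1 of 213 Q7 sites with a single peak at both temperatures, with its width in bases at 33 °C and at 42 °C on log axes and red for sites with another 33 °C peak within 20 kb. Of these sites 180 lie above the solid line of equal width, and the dashed line marks a ratio of 2.

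Widening went with the place of a site in the 42 °C order. In the best quartile of the 213 pairs at 42 °C, the median width was 473 bases at 33 °C and 888 bases at 42 °C, a median ratio of 2.01 (1.82 to 2.23), and 52 of 53 pairs were wider at 42 °C. The median ratio was 1.43 in the second quartile, 1.27 in the next and 1.13 (1.06 to 1.34) in the lowest, where 39 of 54 pairs were wider. Over the 213 pairs, rho between the width ratio and the 42 °C score was 0.58, and between the ratio and the 33 °C score it was -0.17. Width and score go together within the 42 °C list as a whole, with a rho of 0.57 over 6173 peaks, and less so at 33 °C, with 0.31 over 260 peaks. The widening of the best sites and the score that ranked them therefore cannot be told apart. At a given place in the 42 °C list, kept peaks were not always wider than heat-only ones. In the best decile their medians were 889 and 707.5 bases. At or above the tied score they were 888.5 (821 to 1048, n = 40) and 835 bases (751 to 923, n = 45), with overlapping intervals, and in the second decile 593 and 623 bases.

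Among the 213 single pairs, the 5 with the largest width ratio were all isolated at 33 °C, as were 155 of all 213. The site at chr8:86131982-86132302 was 321 bases wide at 33 °C and 1711 bases at 42 °C, a ratio of 5.33. At chr15:75374652-75374977 the width went from 326 to 1163 bases, and at chr5:150438710-150439248 from 539 to 1697 bases. The others were chr11:55919253-55919494, from 242 to 710 bases, and chr5:152171121-152171597, from 477 to 1294 bases. All 5 stood at rank 153 or better at 42 °C, and none had another 33 °C peak within 20 kb. The 5 lowest ratios among the single pairs, from 0.668 to 0.712, belonged to sites that were narrower at 42 °C. They lay at chr4:57517651-57518147, chr3:51163048-51163654, chr11:68938508-68939022, chr8:20020097-20020610 and chr2:27395059-27395597, with ranks at 42 °C from 1390 to 5289. The 39 pairs of fused or divided peaks reached further in both directions, from 0.366 to 8.10, since a part was there set against a whole. Of these, 15 exceeded the fifth largest ratio of the single pairs and 7 fell below the smallest.

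The position of kept sites changed little. The lists give no summits, so the midpoint of each interval was used. Midpoints lay a median of 57.5 bases apart (49 to 68) over the 252 pairs and 50.5 bases (39.5 to 58) over the 213 single pairs, or 10.9% of the width at 33 °C. In 175 of the 213 single pairs they lay within 100 bases. The 42 °C midpoint was at the higher coordinate in 135 pairs and at the lower in 117, a median signed shift of 6 bases (-5 to 19.5). Peaks grew by similar amounts on both sides, by a median of 88.5 bases (64 to 123) at the lower end and 102.5 bases (75 to 123) at the upper. In 165 of 252 pairs the 33 °C peak lay wholly inside the 42 °C peak, and the reverse held in 19.

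A few sites shifted further. The largest distance among single pairs was 494 bases, at the site chr8:86131982-86132302, where most of the added width lay on the upper side. At chr19:12084015-12084539 the midpoint moved 333 bases to lower coordinates, and at chr5:125873102-125873775 it moved 287.5 bases to higher ones. The remaining 2 of the 5 largest were chr3:97860741-97861357 and chr13:22066689-22067238, with shifts of -273.5 and -272 bases. In 4 of these 5 sites the 42 °C peak held the whole or nearly the whole of the 33 °C peak. The exception, on chromosome 19, shared 337 of its 525 bases. Close to the limit of a match, the smallest overlap in any pair was 12 bases, at chr6:128710052-128710521, and the nearest unmatched 33 °C peak lay 1066 bases from a 42 °C peak.

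Some kept peaks overlapped more than 1 peak of the other list. They are called fused or divided here, even where an overlap was as small as 12 bases. At 42 °C, 14 peaks each overlapped more than 1 peak at 33 °C. At 33 °C, 7 peaks each overlapped more than 1 peak at 42 °C. These made up the 39 pairs left out of the ordering above. Fused peaks at 42 °C started at 173031798 on chromosome 1, at 48669116, 68850162, 68853675, 68875634 and 115273967 on chromosome 11, and at 21259323, 23537894 and 23608878 on chromosome 13. The others started at 45709152 on chromosome 17, 96304029 on chromosome 3, 125885776 on chromosome 5, 128710510 on chromosome 6 and 97227276 on chromosome 8. The fused peak on chromosome 17 was the widest of the 42 °C list, 2633 bases, tied at rank 49, and spanned 33 °C peaks of 531 and 325 bases at ranks 220 and 136. Divided peaks at 33 °C started at 172967894 and 173032685 on chromosome 1, 48647198 on chromosome 11, 23609417 on chromosome 13, 12085782 on chromosome 19, and 128710052 and 128788172 on chromosome 6. Of these, the peak on chromosome 11 stood at rank 4 at 33 °C, and its parts at 42 °C stood at ranks 671 and 832.5.

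The 15 peaks lost at 42 °C were scattered and low in the 33 °C list. All 15 were in its lower 50%, with a median rank of 219 (204 to 249), and they lay on 10 chromosomes. The best placed were chr3:87709923-87710288 at rank 145, chr15:72398970-72399284 at rank 170, chr12:29320621-29320997 at rank 188, chr6:56654597-56654962 at rank 204 and chr4:151699680-151699990 at rank 210. For 13 of the 15 the nearest 42 °C peak was over 20 kb away, and for 6 over 100 kb. The closest approach was 1066 bases, for the peak at chr8:27126130-27126499. In Q111 cells, 2 of the 15 sites held a peak at 33 °C and 1 held a peak at 42 °C. Among the 245 kept peaks these numbers were 182 at 33 °C, or 74.3% (68.5 to 79.4), and 228 at 42 °C, or 93.1% (89.2 to 95.6). Kept Q7 sites were thus mostly found in the other line too, and lost ones mostly not. Low-scoring peaks can escape calling in a second library, and the part of this in the difference was not tested.

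Heat-only Q7 sites were shared with heat-shocked Q111 cells according to their rank. Of the 520 heat-only peaks in the best decile, 465 overlapped a Q111 peak at 42 °C, or 89.4% (86.5 to 91.8), and of the 97 kept ones 96 did. In deciles 2 and 3 the counts were 616 of 1133 heat-only peaks, or 54.4% (51.5 to 57.2), and 98 of 101 kept ones. In deciles 4 to 10 they were 471 of 4282, or 11.0% (10.1 to 11.97), and 27 of 40, or 67.5% (52.0 to 79.9). Within each of these ranges a larger share of kept than of heat-only sites overlapped a Q111 peak. Rank was not matched within the ranges, however. Of the 40 kept peaks in deciles 4 to 10, 16 were in decile 4 and 9 in decile 5, whereas heat-only peaks were spread about evenly. In the best decile, 40 of 97 kept and 45 of 520 heat-only peaks stood at or above the tied score. The part of rank in these differences was not tested. Of all 5935 heat-only peaks, 74 overlapped a Q111 peak at 33 °C.

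The largest shares of the 33 °C peaks lay on chromosomes 13 and 11, though most peaks lay elsewhere, and peaks at 42 °C were spread more evenly. Chromosomes 13 and 11 held 37 and 32 of the 260 peaks at 33 °C, or 14.2% and 12.3%. At 42 °C they held 320 and 474 of 6173 peaks, or 5.18% and 7.68%. The ratio of the 42 °C to the 33 °C number was lowest on chromosome 13, at 8.65, followed by chromosome 11 at 14.8. It was highest on X, from 1 to 82 peaks, and on chromosomes 16, from 3 to 214, and 2, from 8 to 469. Ratios that start from so few peaks are imprecise. Every chromosome gained peaks.

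**Figure D4:**
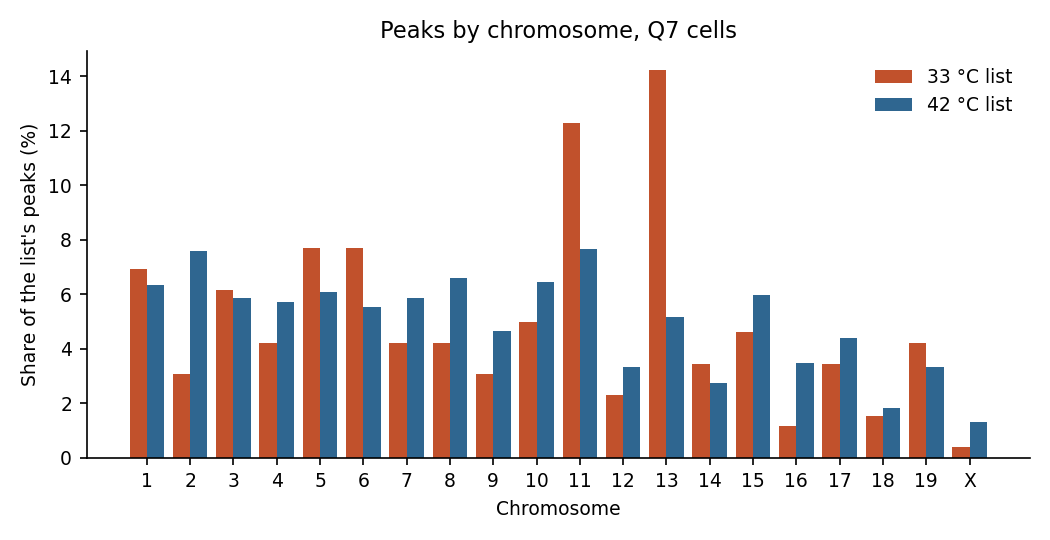
Bars show the share of all peaks of a list that lay on each chromosome, in percent, red for 260 Q7 peaks at 33 °C and blue for 6173 at 42 °C. Chromosome 13 holds 14.2% of the 33 °C list and 5.18% of the 42 °C list.

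The low ratio of chromosome 13 came from a single stretch. Between 21 and 24 Mb, a window that earlier work on these data had pointed to, 35 peaks at 33 °C became 78 at 42 °C, 2.23 times as many. On the rest of the chromosome, 2 peaks became 242. Peaks of the window stood at a median position of 59.2% at 33 °C and 23.99% at 42 °C. The second value takes in 78 peaks, 33 of them kept, so the 2 medians are not of the same sites. Single pairs in the window had a median position of 20.4% at 42 °C (15.2 to 27.0, n = 29). Those outside it had one of 12.8% (8.20 to 16.1, n = 184). The median width of the window's peaks was 377 bases at 33 °C and 502.5 bases at 42 °C. Outside the window, 225 peaks became 6095, a ratio of 27.1.

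At 42 °C the density of peaks differed between chromosomes. Over the span between the outermost peaks, which stands in for the chromosome length, it ran from 3.998 peaks per Mb on chromosome 11, 3.72 on chromosome 15 and 3.54 on chromosome 19 down to 1.29 on chromosome 18 and 0.513 on X. On chromosome 18 and X the median distance between neighbours was 126108 and 175802 bases, against 33558 to 62847 bases on the others. The numbers of peaks per chromosome at the 2 temperatures had a rho of 0.61 over 20 chromosomes, which differ in length.

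At 33 °C many sites stood in tight groups and most others far apart. Of the 260 peaks, 51, or 19.6% (15.2 to 24.9), had another 33 °C peak within 500 bases and 90, or 34.6% (29.1 to 40.6), had one within 20 kb. The median distance was 421121 bases (200514 to 898392). With the chromosome 13 window left out, the median was 932248 bases. At 42 °C the median distance was 49201 bases (46305 to 51945), and 310 of 6173 peaks, or 5.02% (4.50 to 5.60), had a neighbour within 500 bases. The 42 °C list is far longer, yet its share of peaks with a very close neighbour was lower than at 33 °C.

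**Figure D5:**
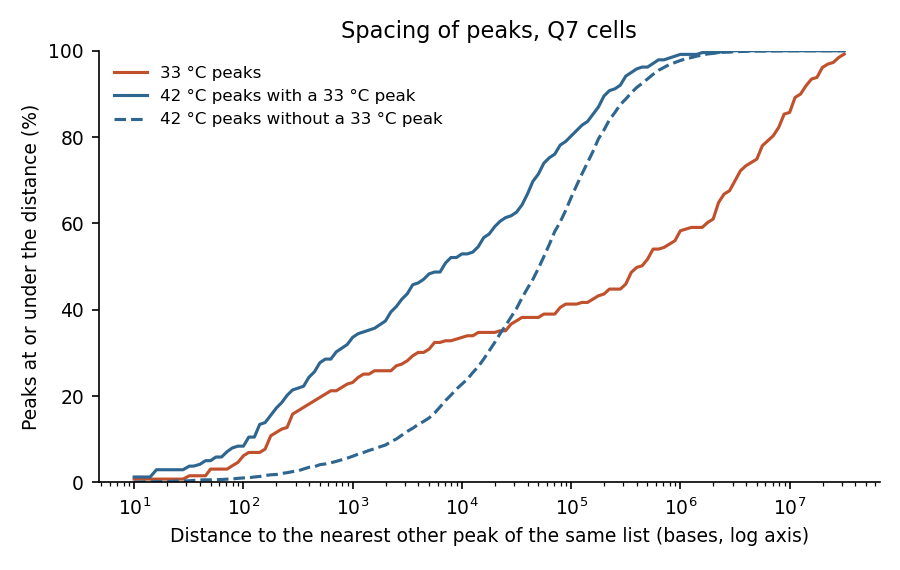
Curves give the percentage of peaks whose nearest other peak of the same list lies at or within a distance in bases, on a log axis, for Q7 peaks at 33 °C and for Q7 peaks at 42 °C with and without a 33 °C peak. Within 500 bases the shares are 19.6% at 33 °C, 27.7% for kept and 4.11% for heat-only peaks at 42 °C.

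At 42 °C, close neighbours were more frequent around kept than around heat-only sites. Of the 238 kept peaks, 66, or 27.7% (22.4 to 33.7), had another 42 °C peak within 500 bases, against 244 of 5935 heat-only peaks, or 4.11% (3.64 to 4.65). Within 20 kb the shares were 59.2% (52.9 to 65.3) and 32.4% (31.2 to 33.6). Outside the chromosome 13 window they were 53.2% and 32.0% within 20 kb, and 24.4% and 3.97% within 500 bases. The 66 kept peaks with a neighbour within 500 bases include the parts of the 7 divided 33 °C peaks. Kept peaks also stood higher in the 42 °C list, and peaks of like rank were not compared for spacing. Few heat-only peaks lay beside a site bound at 33 °C. Of the 5935, 121 lay within 20 kb of a 33 °C peak, or 2.04% (1.71 to 2.43), 31 of them in the chromosome 13 window, and 5627 lay over 100 kb away. The 29 within 1 kb had a median position of 30.1% in the 42 °C list and a median width of 561 bases. Those over 100 kb away had a median position of 52.1% and a median width of 491 bases.

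Grouped 33 °C sites stood lower in the 42 °C list than isolated ones, most of all among the single pairs. The 58 single pairs with another 33 °C peak within 20 kb had a median position of 20.5% in the 42 °C list (17.4 to 23.7), and the 155 isolated ones of 9.69% (4.81 to 15.2). Their positions in the 33 °C list had been alike, with medians of 49.4% and 50.8%. Widths went from a median of 403 to 518.5 bases at grouped sites and from 441 to 666 bases at isolated ones, with median ratios of 1.27 (1.10 to 1.39) and 1.50 (1.41 to 1.62). Of the 39 pairs at or above the tied score at 42 °C, 1 was grouped. Grouped sites made up 2 of 53 pairs in the best quartile at 42 °C, 14 of 53 in the second, 23 of 53 in the next and 19 of 54 in the lowest. At 33 °C they were spread over the quartiles as 12, 17, 17 and 12. Outside the chromosome 13 window, 36 grouped pairs remained, with a median position of 20.5% and a median ratio of 1.23. The single pairs leave out fused peaks, which are grouped by nature and stood at a median rank of 359 at 42 °C. With fused and divided peaks joined into 1 site each, there were 76 grouped sites and the same 155 isolated ones. The grouped sites then had a median position of 17.7% at 42 °C (13.5 to 22.7) by their best peak, an interval that overlaps that of the isolated sites, and of 41.4% at 33 °C. Their median width ratio was 1.23 (1.11 to 1.34), and 2 of the 76 reached the tied score, compared with 38 of the 155. The direction of the difference in position was thus kept, with a smaller size.

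Chains of peaks with gaps of at most 20 kb were also counted. At 33 °C, 170 peaks stood alone, and 4 chains of at least 5 peaks held 28 peaks, or 10.8% of the list. They lay at chr13:23517276-23559206 with 9 peaks, chr13:23595746-23622394 with 7, chr11:48631917-48670530 with 6 and chr5:125873102-125890192 with 6. All 28 peaks were kept, as were 245 of all 260 peaks at 33 °C. At 42 °C, 4109 peaks stood alone, and 31 chains of at least 5 peaks held 207 peaks, or 3.35% of the list. Of these 31 chains, 15 contained a 33 °C peak, compared with 66 of the 812 chains of 2 to 4 peaks. The 812 shorter chains held 1857 peaks, and 3.86% of all 42 °C peaks overlapped a 33 °C peak. A chain of more peaks has more chances to hold one, so the 2 counts are not a like comparison.

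Most of the longest chains at 42 °C took in sites bound at 33 °C, but those on chromosome 13 all lay in the window between 21 and 24 Mb. Of all 31 chains of at least 5 peaks, 15 held a 33 °C peak and 16 held none. The chain at chr13:23488764-23559366 held 16 peaks over 70.6 kb, 8 of them kept. It was followed by chr13:21973560-22032994 with 12 peaks, 3 of them kept, and chr13:23592283-23622559 with 11 peaks, 7 of them kept. Chains of 9 peaks lay at chr10:59347503-59414902, at chr11:48631768-48686532, where 6 were kept, and at chr13:21291777-21371843, where 2 were. The chain on chromosome 10 was the only one of these 6 without any 33 °C peak. It spanned 67.4 kb, and its best peak was tied at rank 49.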

How the data were processed

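HSF1 was immunoprecipitated from crosslinked chromatin with the antibody sc-9144 and, after PCR amplification and gel selection, sequenced on the Illumina Genome Analyzer II, per the labels' protocols. Per the submitters' processing notes, the build was mm9 and MACS 1.4.0rc2 was used. For the aligner, background library, filters and read totals, no statement is given in the sources used here. The score of each peak was deposited by the authors in the last column of 1 headerless list per library. It was taken as -10 times the base-10 logarithm of a p-value, an inference from the usual output of MACS. Control IgG libraries were not analysed here.

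Lists were matched by at least 1 shared base with pandas 2.3.3 and numpy 2.4.6 under Python 3.11.15, intervals came from scipy 1.17.1 and figures from matplotlib 3.10.9, and the matching was checked on lists with planted overlaps. Distances were taken edge to edge. With 1 library a side, all results are descriptive. The members, the chromosome 13 window and the comparisons were chosen with earlier results of these data known. Peaks named are the 5 largest rises and falls in order, the 5 largest and smallest width ratios, the 5 largest shifts, all fused or divided peaks, pairs in the top 10 at both temperatures, the 5 best lost peaks, the 5 best heat-only peaks below the tie and the 5 longest chains, with ties. The 10 best pairs at 33 °C, the chains at 33 °C, the 4-list comparison and the split into grouped and isolated sites were added after the data were seen. Alternatives were a minimum score of 100, autosomes, lists without the chromosome 13 window or without the tied scores, 3 other matching rules and a trimmed 42 °C list. Planned tests of sequence motifs and gene annotation need an mm9 genome and were not run.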

Additional observations from a re-analysis of the deposited data

Results flagged for a closer look

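The width change of kept sites went in opposite directions in the 2 cell lines. The median ratio of the width at 42 °C to that at 33 °C was 1.47 (95% interval 1.36 to 1.53, 252 pairs) in Q7 cells and 0.9499 (0.907 to 0.993, 271 pairs) in Q111 cells. The 42 °C peak was the wider in 82.9% of pairs in Q7 and in 43.5% (37.8 to 49.5) in Q111 cells. At the 138 sites with a single peak in each of the 4 lists, median widths were 448.5 and 595 bases in Q7 cells and 575.5 and 509 bases in Q111 cells, at 33 and 42 °C. The difference between the lines was not tested, since each value rests on 1 library a side. Depth and enrichment are unknown and cannot be told apart from the cell line.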

How the results depend on the processing

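The 10 results of the comparison were recomputed with other filters and matching rules, giving 66 values. The 95% interval of the result held 53 of them, and 13 fell outside. The trimmed 42 °C list was used for shares and spacing alone. None of the other settings moved the best-quartile agreement, the position of kept sites in the 42 °C list or the share of wider pairs beyond its interval. The best-quartile agreement uses single pairs throughout, so its value under single matches only could not change. A minimum score of 100 moved the median spacing at 42 °C to 54851 bases. Without the chromosome 13 window, the share of 42 °C peaks with a 33 °C peak was 3.36%, the median spacing at 33 °C 932248 bases, and 1.53% of heat-only peaks lay within 20 kb of a 33 °C peak. Without the 85 peaks at or above the tied score, 78.5% of 33 °C peaks were kept, 3.25% of 42 °C peaks had a counterpart and the median width ratio was 1.35. A gap of up to 500 bases brought the midpoint distance to 70.5 bases. With single matches only, 81.9% of 33 °C peaks were kept and 2.45% of heat-only peaks lay within 20 kb. With the 42 °C list trimmed to its best 260 peaks, 29.2% of 33 °C and 27.3% of 42 °C peaks were shared, and the median spacing at 42 °C was 1730920 bases. By construction the gap rule adds matches, with 298 pairs, and the other settings remove peaks or matches. The 16 values for grouped and isolated sites under alternatives chosen after seeing the data stayed within their intervals. Including fused and divided peaks added no isolated site, so the values of isolated sites were the same under that setting. No paired analysis was possible because each condition has 1 library and no result comes from a test.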

Other observations

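Heat shock also gave chains of peaks in places with no Q7 peak at 33 °C. Of the 31 chains of at least 5 peaks at 42 °C, 16 held none. Besides the chain of 9 peaks on chromosome 10 from 59347503, such chains lay at chr10:110980822-111057388 with 7 peaks over 76.6 kb, at chr12:88196574-88240844 with 7 peaks over 44.3 kb, and at chr10:80123851-80174769 with 6 peaks over 50.9 kb. Their best peaks held ranks 375, 1824.5 and 112. Median ranks within these chains were 3147, 4482 and 1295, so the chain on chromosome 12 consisted mostly of low-ranked peaks. These chains were chosen after their values were seen.

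Of the best 1000 peaks of the 42 °C list, 90 lay on chromosome 11, 77 on chromosome 5, 71 on chromosome 10 and 12 on X. The shares of these chromosomes in the whole 42 °C list were similar, at 7.68%, 6.09%, 6.46% and 1.33%, in the same order. Of these 1000 peaks, 134 overlapped a 33 °C peak, or 13.4% (11.4 to 15.7).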
